A study of Homo sapiens with 13 samples.

Results

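The comparison is between AC16 cells that received optogenetic mitochondrial preconditioning and then FCCP, in 3 libraries labelled Preconditioning+FCCP, and cells labelled control, in 3 libraries. These 6 libraries were chosen by the treatment given in the labels, out of 13 libraries in 4 groups, and all genes were compared. The other libraries are 3 of FCCP alone and 4 of preconditioning alone. AC16 is a human line made by fusing adult ventricular heart cells with a transformed fibroblast line, and it is the single line studied. All labels give the genotype as wildtype. The study's design text speaks of cells expressing mOpto, a light-driven mitochondrial tool, but the labels do not say whether the control cells carried it or saw light, nor do they give a light dose, an FCCP dose or a time. The labels name no separate cultures behind the libraries of a group, so p-values measure how far these libraries differ, which could be technical variation.

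FCCP is a protonophore that carries protons across the inner mitochondrial membrane, so that respiration runs without making ATP and the membrane potential falls. Preconditioning is a mild stress given before a harsher one, and in the heart it is studied for the survival of cells through the harsher stress. Cells that sense mitochondrial trouble can switch on the integrated stress response, in which kinases phosphorylate the initiation factor eIF2alpha, most translation slows, and the factors ATF4, CHOP and ATF3 drive genes for amino acid supply, protein folding and, when stress lasts, cell death.

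The preconditioning+FCCP libraries held 15537681 to 20636229 counts on genes and the control libraries 15426614 to 19342485. The labelled cell type, myocyte, was set against defining markers: 11 of 26 cardiomyocyte markers passed the filter on low counts, and TNNT2, MYH7, MYL2 and MYL7, which encode sarcomere proteins of heart muscle, had no count in any of the 6 libraries. Summed cardiomyocyte markers overlapped, at 419 to 594 CPM in the preconditioning+FCCP libraries and 463 to 574 CPM in the control libraries. All 15 fibroblast markers passed it, with a summed level of 1836 to 3376 CPM (counts scaled to a fixed library total) in the preconditioning+FCCP libraries and 5995 to 12953 CPM in the control libraries. Summed smooth muscle markers stood at 846 to 1925 CPM in the preconditioning+FCCP libraries and at 2057 to 3399 CPM in the control libraries. Summed endothelial markers stood at 164 to 216 CPM in the preconditioning+FCCP libraries and at 224 to 384 CPM in the control libraries. Immune markers summed to 2.96 to 5.76 CPM in the preconditioning+FCCP libraries and to 4.32 to 8.49 CPM in the control libraries, with CD3E and HLA-DRA at 0. In bulk RNA, fewer cells of a type and less RNA per cell cannot be told apart.

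The 3 libraries of a group did not resemble each other equally. Libraries fell into a set with a low share of reads aligned to several places (4.69% and 5.22% in preconditioning+FCCP 1 and 2, 4.00% in control 3) and a set with a high share (8.28% in preconditioning+FCCP 3, 11.5% and 8.44% in control 1 and 2). On the first principal component of all 13 libraries, which held 31.5% of the variance, the preconditioning+FCCP libraries lay between 72.2 and 90.5 and the control libraries between −29.1 and −5.9, while the second, with 30.6%, followed the sets. Control 3 correlated most strongly with a library of preconditioning alone (Pearson r 0.967 over genes). The main gene lists below are also given within the sets, that is for preconditioning+FCCP 1 and 2 over control 3 and for preconditioning+FCCP 3 over control 1 and 2.

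Cells given both treatments had less RNA for actin, the beta-tubulin TUBB, most of the collagens listed, the caveolar protein CAV1 and its adaptors, connexin 43 and glycolysis. They had more RNA for early transcription factors, the regulators ATF3 and CHOP, ER stress sensors, the autophagy kinase ULK1 and the pro-apoptotic protein BIM. ATP synthase RNA was lower less firmly, with 11 genes called lower but 2 without preconditioning+FCCP 2. Of 16756 genes tested, 5229 passed an adjusted p of 0.05 in edgeR's quasi-likelihood test with Benjamini-Hochberg adjustment, which is 31.2% of the genes. Of these, 2511 rose, or 15.0% of the genes tested, and 2718 fell, or 16.2%. For 6313 genes, or 37.7%, the 3 preconditioning+FCCP libraries and the 3 control libraries did not overlap. Scaled by library totals only, 65.1% of the called genes were higher, against 48.0% with the TMM scaling used here, and the median of all genes was 0.16 on the log2 scale against −0.04. The count fell to 3098 without preconditioning+FCCP 2, to 3410 without control 1 and to 3346 without control 2. All changes below are log2 changes of preconditioning+FCCP over control with their standard errors, from 3 libraries each, and every adjusted p in the text comes from that test.

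**Figure D1:**
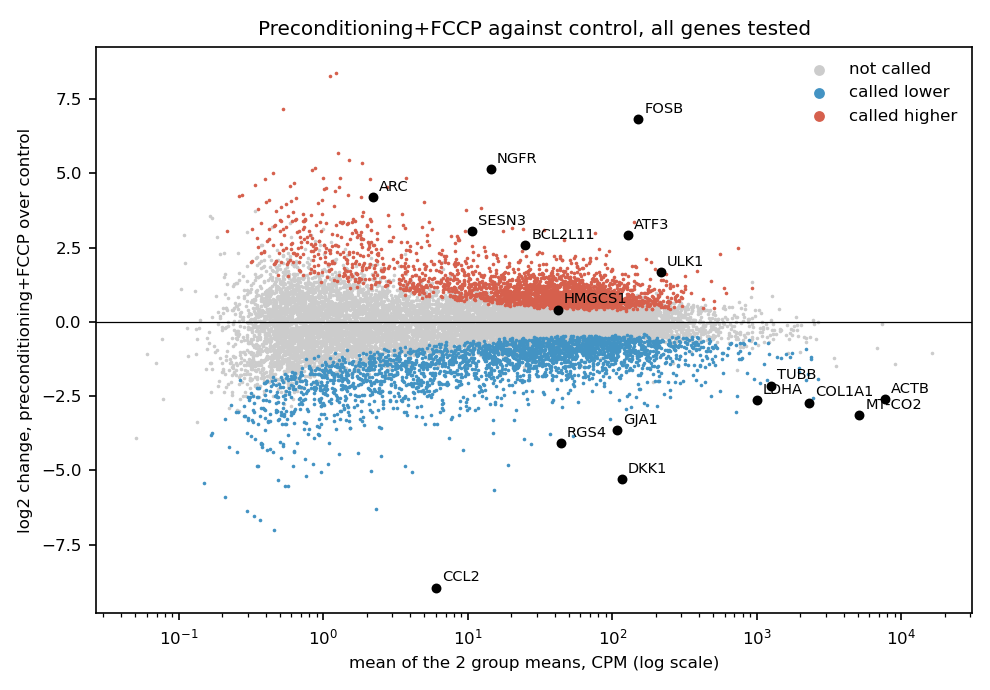
Log2 change of preconditioning+FCCP over control (vertical axis) against the mean level of each gene in CPM (horizontal axis, log scale) for the 16756 genes tested. Red points are the 2511 genes called higher and blue points the 2718 called lower, and black points with names are genes described in the text, with FOSB at 6.83 at the top and CCL2, whose fitted value depends on the prior count, at -8.95 at the bottom.

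Cytoskeleton genes gave some of the most even falls. ACTG1, which encodes cytoplasmic gamma-actin, stood at 689.9, 519.6 and 898 CPM in the preconditioning+FCCP libraries, against 4443, 4291 and 3748 CPM in the control libraries. Every preconditioning+FCCP library lay below every control library (log2 change -2.57 ± 0.26, adjusted p = 6.24e-05). ACTB, the beta-actin gene, had 1306, 1503 and 3772 CPM in the preconditioning+FCCP libraries, against 15550.4, 15505 and 8523 CPM in the control libraries. Its groups did not overlap either, although preconditioning+FCCP 3 stood well above the other two (log2 change -2.59 ± 0.38, adjusted p = 0.000431). Beta- and gamma-actin have near-identical coding sequence and many processed copies, so the split of reads between them is less certain than their sum. TUBB, a beta-tubulin, stood at 401, 357 and 629 CPM in the preconditioning+FCCP libraries, against 2258, 2326 and 1545 CPM in the control libraries, with no overlap (log2 change -2.14 ± 0.24, adjusted p = 0.000130). In a list of 10 tubulin genes that was drawn up after values had been seen, 1 rose and 7 fell, with a median of -0.90. The riser was TUBB3, the beta-tubulin best known from neurons (2.40 ± 0.38, adjusted p = 0.000606).

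Of 18 contractile and myofibroblast genes tested, 10 fell and 0 rose, a share of falls well above the 16.2% of all genes. The median was -0.95 against −0.04 over all genes. Here and below, lists were chosen with earlier results of these data known, so their shares describe the values and test nothing. Their counts are to be read beside the 15.0% of all genes that rose and the 16.2% that fell. CNN2 and CNN1, which encode the actin-binding calponins, changed by -1.50 ± 0.21 and -1.64 ± 0.27 (adjusted p = 0.000308 and 0.000859). MYLK, the kinase that phosphorylates myosin light chain, stood at 28.4, 29.5 and 52.3 CPM in the preconditioning+FCCP libraries, against 117, 111 and 105 CPM in the control libraries. The groups were far apart, with preconditioning+FCCP 3 the highest of its group (log2 change -1.60 ± 0.23, adjusted p = 0.000412). ACTA2, smooth muscle alpha-actin, did not pass the test (log2 change 0.12 ± 0.43, adjusted p = 0.848). Within the sets the list median was -1.17 for preconditioning+FCCP 1 and 2 over control 3 and -0.61 for preconditioning+FCCP 3 over control 1 and 2. The number called lower was 6 without preconditioning+FCCP 2.

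Most genes of the collagen list fell: 13 of 17 tested fell and none rose, with a median of -1.34. COL20A1, a collagen gene outside that list, rose (log2 change 4.86 ± 0.86, adjusted p = 0.00116). COL1A1, the alpha-1 chain of type I collagen, had 713, 575 and 536 CPM in the preconditioning+FCCP libraries, against 4463, 4879 and 2656 CPM in the control libraries. The 3 preconditioning+FCCP libraries were close together and all below the lowest control, which was control 3 (log2 change -2.72 ± 0.28, adjusted p = 6.24e-05). COL1A2, the partner chain, had 216, 234 and 213 CPM in the preconditioning+FCCP libraries, against 1650.5, 1518 and 565 CPM in the control libraries, again without overlap (log2 change -2.49 ± 0.35, adjusted p = 0.000331). COL3A1, the type III chain, stood at 46.7, 43.3 and 59.3 CPM in the preconditioning+FCCP libraries, against 375, 592 and 98.2 CPM in the control libraries. Control 3 was far below control 1 and 2 but still above every preconditioning+FCCP library (log2 change -2.84 ± 0.46, adjusted p = 0.000758). Within the sets the collagen median was -0.73 for preconditioning+FCCP 1 and 2 over control 3 and -1.19 for preconditioning+FCCP 3 over control 1 and 2.

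The enzymes that build collagen fibres moved with them, with 11 of 19 lower, none higher and a median of -1.02. SERPINH1, the collagen chaperone HSP47, had 223, 273 and 316 CPM in the preconditioning+FCCP libraries, against 938, 902 and 837 CPM in the control libraries. Both groups were tight and did not overlap (log2 change -1.72 ± 0.21, adjusted p = 0.000140). PLOD2, a lysyl hydroxylase whose product allows stable cross-links, stood at 138, 133 and 191 CPM in the preconditioning+FCCP libraries, against 883, 755 and 375 CPM in the control libraries, with no overlap (log2 change -2.12 ± 0.27, adjusted p = 0.000201). LOXL3, a lysyl oxidase, and BMP1, which removes the collagen C-propeptide, changed by -1.67 ± 0.22 and -1.11 ± 0.18 (adjusted p = 0.000262 and 0.000707). Of 23 matrix glycoproteins tested, 14 fell and none rose (median -0.80), among them thrombospondins THBS1 (-1.71 ± 0.34, adjusted p = 0.00236) and THBS2 (-1.39 ± 0.25, adjusted p = 0.00123) and the laminin chain LAMA4 (-1.18 ± 0.23, adjusted p = 0.00198). Fibronectin, FN1, did not pass the test (log2 change -0.28 ± 0.22, adjusted p = 0.338). Beside these lists, 11 of 15 fibroblast markers fell and 1 rose, and 3 of the 15 are collagens already given. Whether the cell population differed between the groups was not tested.

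Matrix proteases and their inhibitors were less uniform, with 4 of 15 lower and none higher. PLAT, tissue plasminogen activator, stood at 52.7, 52.0 and 100.3 CPM in the preconditioning+FCCP libraries, against 269, 194 and 373 CPM in the control libraries. Preconditioning+FCCP 3 was the highest of its group and still below every control (log2 change -2.03 ± 0.28, adjusted p = 0.000289). TIMP3, a matrix-bound metalloprotease inhibitor, changed by -1.45 ± 0.27 (adjusted p = 0.00165). The list median of -0.68 differed between the sets, being -1.73 for preconditioning+FCCP 1 and 2 over control 3 and 0.29 for preconditioning+FCCP 3 over control 1 and 2. MMP2, the gelatinase, was called lower (log2 change -0.99 ± 0.32, adjusted p = 0.0275), but its call did not hold without preconditioning+FCCP 2 or control 2, the largest adjusted p being 0.221, and it was 0.14 for preconditioning+FCCP 1 and 2 over control 3. The number called lower was 7 without preconditioning+FCCP 3, and the number called higher was 5 without control 3.

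Caveolar genes and the gap junction gene GJA1 fell. GJA1 encodes connexin 43, the main gap junction protein of working heart muscle, and had 15.6, 11.6 and 20.5 CPM in the preconditioning+FCCP libraries, against 199, 269 and 131 CPM in the control libraries. The highest preconditioning+FCCP library held a small part of the lowest control level (log2 change -3.65 ± 0.34, adjusted p = 6.24e-05). GJA1 also belongs to the cardiomyocyte markers, which did not fall as a list. Of the 11 tested, 2 rose and 2 fell, with a median of 0.55. EHD2, an ATPase at the neck of caveolae, had 63.8, 60.3 and 100.5 CPM in the preconditioning+FCCP libraries, against 468, 485 and 329.8 CPM in the control libraries, also far apart (log2 change -2.52 ± 0.24, adjusted p = 6.24e-05). In a caveolar coat list drawn up after values had been seen, 5 of 6 genes tested fell, none rose, and the median was -1.78. They included CAV1, which builds the coat (-2.01 ± 0.35, adjusted p = 0.00118), and its adaptors CAVIN1 (-1.43 ± 0.23, adjusted p = 0.000758) and CAVIN2 (-3.31 ± 0.43, adjusted p = 0.000210). ESAM, an adhesion molecule of cell junctions, rose (3.26 ± 0.62, adjusted p = 0.00189).

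Targets of the mechanosensitive coactivator YAP and of TGF-beta largely fell, with 10 of 20 lower, 1 higher and a median of -0.69. F3, tissue factor, which starts coagulation, had 33.7, 41.5 and 52.9 CPM in the preconditioning+FCCP libraries, against 255, 160.2 and 325 CPM in the control libraries. Its groups did not overlap (log2 change -2.53 ± 0.30, adjusted p = 0.000140). CCN1, a secreted matricellular protein and a common YAP readout, stood at 122, 535 and 567 CPM in the preconditioning+FCCP libraries, against 1787, 1779 and 1503 CPM in the control libraries. Preconditioning+FCCP 1 was the lowest library and the 3 control libraries were alike (log2 change -2.05 ± 0.46, adjusted p = 0.00414). HAS2, which makes hyaluronan, had 1.62, 1.15 and 3.50 CPM in the preconditioning+FCCP libraries, against 8.54, 5.53 and 69.7 CPM in the control libraries, and control 3 was many times above the other controls (log2 change -3.75 ± 0.82, adjusted p = 0.00367). The list median was -1.22 for preconditioning+FCCP 1 and 2 over control 3 and -0.06 for preconditioning+FCCP 3 over control 1 and 2.

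Secreted signals and their regulators were among the largest falls. DKK1, a secreted inhibitor of Wnt signalling, had 5.85, 4.68 and 6.84 CPM in the preconditioning+FCCP libraries, against 202, 160.1 and 316 CPM in the control libraries. All 3 preconditioning+FCCP libraries were near the same low level (log2 change -5.29 ± 0.77, adjusted p = 0.000412). CCL2, the monocyte chemokine, had 1 count in all preconditioning+FCCP libraries together against 597 in the control libraries, a control over preconditioning+FCCP ratio of 709.7 with a 95% counting interval of 126.9 to 28078 that covers counting error only. IL1B, an inflammatory cytokine, stood at 1.10, 2.22 and 5.71 CPM in the preconditioning+FCCP libraries, against 14.3, 15.8 and 124 CPM in the control libraries, without overlap but with control 3 far above the other controls (log2 change -4.10 ± 0.79, adjusted p = 0.00191). RGS4, which shortens signalling through Gq- and Gi-coupled receptors, had 5.21, 3.57 and 6.05 CPM in the preconditioning+FCCP libraries, against 46.6, 73.0 and 129.5 CPM in the control libraries. The groups were far apart (log2 change -4.08 ± 0.41, adjusted p = 6.24e-05). ELANE, neutrophil elastase, had 15 counts in the preconditioning+FCCP libraries together and 365 in the control libraries, 11 of them in control 3. COLEC12, a scavenger receptor (log2 change -5.65 ± 0.90, adjusted p = 0.000675), MIR210HG, host gene of a hypoxia-induced microRNA (log2 change -4.82 ± 0.77, adjusted p = 0.000688), the orphan receptor gene GPR78 (log2 change -4.30 ± 0.73, adjusted p = 0.000933), PLAC8 (log2 change -3.93 ± 0.61, adjusted p = 0.000599) and HIF1A-AS3, antisense to HIF1A (log2 change -3.92 ± 0.66, adjusted p = 0.000902), completed the 10 largest falls. For all 5 of these, control 3 stood closest to the preconditioning+FCCP libraries. COLEC12 had 24.4, 63.0 and 2.32 CPM in control 1 to 3, against 0.405, 0.575 and 0.791 CPM in preconditioning+FCCP 1 to 3. For MIR210HG these were 50.2, 56.7 and 3.75 CPM, against 1.45, 1.11 and 1.36 CPM. With no strand setting named for the counting, reads of HIF1A-AS3 and HIF1A may not have been told apart.

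Among the genes of the NF-kB list, 4 of 19 fell, all of them cytokines or chemokines, and 2 rose. The risers were the NF-kB subunit genes RELB and NFKB1 (log2 change 1.20 ± 0.35, adjusted p = 0.0182), although the NFKB1 call did not hold without preconditioning+FCCP 1, control 1 or control 2, the largest adjusted p being 0.0914. RELB had 74.3, 62.8 and 66.4 CPM in the preconditioning+FCCP libraries, against 16.2, 15.1 and 26.4 CPM in the control libraries, with tight groups far apart (log2 change 1.82 ± 0.22, adjusted p = 0.000181). CXCL1, a neutrophil chemokine, changed by -2.30 ± 0.64 (adjusted p = 0.0142), and its call did not hold without preconditioning+FCCP 1, with an adjusted p of 0.0564. The list median of -0.34 was -1.01 for preconditioning+FCCP 1 and 2 over control 3 and 0.54 for preconditioning+FCCP 3 over control 1 and 2. Interferon-stimulated genes were called in both directions, with 5 of 21 higher and 4 lower, against 15.0% and 16.2% of all genes (median -0.17, and 0.05 with library totals only). IFIT1, an antiviral RNA-binding protein, had 4.05, 8.13 and 20.5 CPM in the preconditioning+FCCP libraries, against 112, 59.6 and 65.2 CPM in the control libraries, and its groups did not overlap (log2 change -2.86 ± 0.49, adjusted p = 0.00103). IFIT2 and IFIT3 fell too (-1.80 ± 0.46 and -1.79 ± 0.42, adjusted p = 0.00915 and 0.00543), whereas IRF7, a transcription factor of the interferon response, rose (1.44 ± 0.21, adjusted p = 0.000433). The number of interferon-stimulated genes that rose was 1 without preconditioning+FCCP 2 or preconditioning+FCCP 3 or control 2 and 2 without control 1, and the number that fell 8 without preconditioning+FCCP 3.

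**Figure D2:**
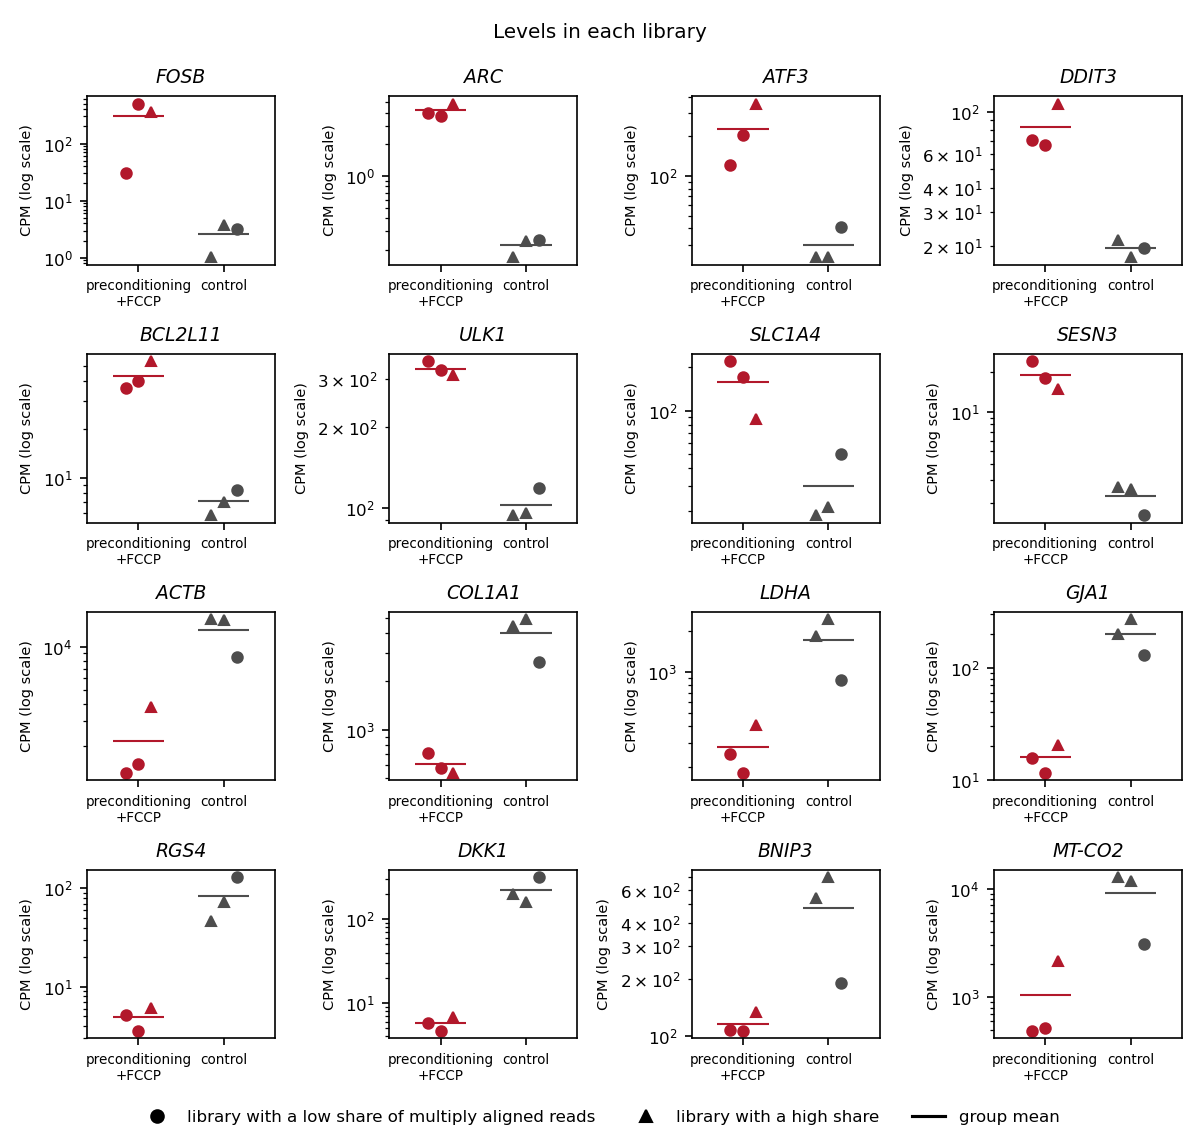
Level in CPM (vertical axis, log scale, its range differing between panels) of 16 genes in each of the 3 preconditioning+FCCP libraries (red, left) and the 3 control libraries (grey, right). Circles mark libraries of the low-share set, triangles those of the high-share set, and lines the group means. In each panel the 2 groups are apart, and for MT-CO2, LDHA and BNIP3 control 3, the circle on the right, stands well below the other controls.

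Glycolysis fell in most of its genes: of 23 genes tested, 16 fell and 1 rose, and the median was -0.98. LDHA, which turns pyruvate into lactate, had 249, 179.7 and 403 CPM in the preconditioning+FCCP libraries, against 1848, 2429.9 and 871 CPM in the control libraries. Every control lay above every preconditioning+FCCP library, control 3 being the lowest control (log2 change -2.63 ± 0.40, adjusted p = 0.000557). SLC16A3, the lactate exporter MCT4, had 91.9, 88.3 and 73.3 CPM in the preconditioning+FCCP libraries, against 275, 289.7 and 439 CPM in the control libraries. Here control 3 was the highest library (log2 change -1.98 ± 0.28, adjusted p = 0.000385). PGK1, the first enzyme of the pathway to yield ATP, stood at 443, 342 and 426 CPM in the preconditioning+FCCP libraries, against 1550.3, 2146 and 844 CPM in the control libraries, with no overlap (log2 change -1.91 ± 0.32, adjusted p = 0.000906), and ENO2, an enolase, changed by -1.46 ± 0.28 (adjusted p = 0.00190). The riser was SLC2A3, the high-affinity glucose transporter GLUT3 (log2 change 1.25 ± 0.27, adjusted p = 0.00371). HK2, a hexokinase that binds mitochondria, and SLC2A1, the glucose transporter GLUT1, did not pass the test (log2 change -0.08 ± 0.38, adjusted p = 0.895 for HK2, and log2 change -0.05 ± 0.24, adjusted p = 0.881 for SLC2A1). Within the sets the median was -0.66 for preconditioning+FCCP 1 and 2 over control 3 and -1.03 for preconditioning+FCCP 3 over control 1 and 2.

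Among targets of the hypoxia factor HIF-1, 8 of 16 tested fell and none rose, with a median of -0.93, but the libraries disagreed: the median was 0.20 for preconditioning+FCCP 1 and 2 over control 3 and -1.25 for preconditioning+FCCP 3 over control 1 and 2. BNIP3, a mitophagy receptor on the outer membrane, had 107, 106 and 134 CPM in the preconditioning+FCCP libraries, against 540.2, 697 and 191 CPM in the control libraries. Control 3 was far below control 1 and 2 and still above all preconditioning+FCCP libraries (log2 change -2.04 ± 0.42, adjusted p = 0.00264). CA12, a carbonic anhydrase, and PDK1, the kinase that shuts pyruvate dehydrogenase, changed by -1.32 ± 0.24 and -1.52 ± 0.34 (adjusted p = 0.00133 and 0.00428). The number called lower was 4 without preconditioning+FCCP 1 or preconditioning+FCCP 2 or control 2 and 5 without control 1. With the library set as a term in the fit, which called 30.1% of all genes, 5 of the 16 were called lower. VEGFA, the angiogenic growth factor, did not pass the test (log2 change -0.57 ± 0.34, adjusted p = 0.211).

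RNA of ATP synthase and of complexes II to IV had medians below 0, while complex I was near the background. The groups overlapped in the list means, given in log2(CPM + 0.5). For ATP synthase these were 6.18 in preconditioning+FCCP 3 and 6.07 in control 3, and for complexes II to IV 6.53 and 6.24. Of 16 ATP synthase genes, 11 fell and none rose (median -0.76), of 23 subunit genes of complexes II to IV, 10 fell and 1 rose (median -0.65), and of 37 complex I genes, 8 fell and none rose (median -0.31), against 16.2% of all genes called lower. The complex I median was -0.09 in the fit that carried the library set. ATP5ME, a subunit of the membrane part, was called lower at low levels (0.405, 0.370 and 0.734 CPM in preconditioning+FCCP 1 to 3 and 4.87, 2.25 and 1.25 CPM in control 1 to 3; log2 change -2.47 ± 0.52, adjusted p = 0.00313). ATP5PD, in the peripheral stalk, had 29.9, 35 and 61.1 CPM in the preconditioning+FCCP libraries, against 129, 101 and 50.3 CPM in the control libraries. The groups overlapped, since preconditioning+FCCP 3 lay above control 3, and the call (log2 change -1.16 ± 0.30, adjusted p = 0.0105) did not hold without preconditioning+FCCP 2 or control 1, the largest adjusted p being 0.0575. NDUFB1, an accessory subunit of complex I, had 13.4, 15.7 and 23.5 CPM in the preconditioning+FCCP libraries, against 78.9, 64.8 and 25.6 CPM in the control libraries, with control 3 only just above preconditioning+FCCP 3 (log2 change -1.69 ± 0.33, adjusted p = 0.00229). SDHC, a membrane anchor of complex II, changed by -0.77 ± 0.19 (adjusted p = 0.00760), and UQCRC2, a core subunit of complex III, by -0.65 ± 0.18 (adjusted p = 0.0124), although the UQCRC2 call did not hold without preconditioning+FCCP 2 or control 2, the largest adjusted p being 0.0547. Within the sets, the ATP synthase median was -0.56 for preconditioning+FCCP 1 and 2 over control 3 and -0.52 for preconditioning+FCCP 3 over control 1 and 2, the median for complexes II to IV was -0.34 for preconditioning+FCCP 1 and 2 over control 3 and -0.43 for preconditioning+FCCP 3 over control 1 and 2, and that for complex I was -0.26 for preconditioning+FCCP 1 and 2 over control 3 and 0.05 for preconditioning+FCCP 3 over control 1 and 2. The number called lower moved with single libraries: for ATP synthase it was 2 without preconditioning+FCCP 2, 4 without control 2 and 5 without preconditioning+FCCP 1 or control 1, for complexes II to IV 2 without preconditioning+FCCP 2 or control 2 and 3 without preconditioning+FCCP 1 or control 1, and for complex I 4 without preconditioning+FCCP 2, 5 without preconditioning+FCCP 1 or control 1 or control 2, 14 without control 3 and 15 without preconditioning+FCCP 3. The number of complex I genes that rose was 2 without control 3.

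The 13 mRNAs of mitochondrial DNA had a median of -1.21, with 4 lower and none higher. MT-CO2, a core subunit of complex IV, had 489.8, 518 and 2142 CPM in the preconditioning+FCCP libraries, against 12687, 11792 and 3116 CPM in the control libraries. The groups did not overlap, but preconditioning+FCCP 3 and control 3 came close to each other (log2 change -3.13 ± 0.59, adjusted p = 0.00169). MT-ND6, the mRNA on the light strand, had 52.7, 93.4 and 322 CPM in the preconditioning+FCCP libraries, against 2063, 1466 and 342 CPM in the control libraries (log2 change -3.05 ± 0.72, adjusted p = 0.00564). MT-ATP6, in ATP synthase, and MT-ND5, in complex I, did not pass the test (log2 change -0.48 ± 0.49, adjusted p = 0.476 for MT-ATP6, and log2 change -1.21 ± 0.68, adjusted p = 0.189 for MT-ND5). All mitochondrial genes together took 1.33%, 2.32% and 6.42% of gene counts in the preconditioning+FCCP libraries, mean 3.36% ± 2.70 (SD, n = 3), and 9.58%, 8.95% and 3.00% in the control libraries, mean 7.18% ± 3.63 (SD, n = 3). The shares overlapped, and the difference of −3.82 percentage points had p = 0.20 in an exact two-sided permutation test, where 3 libraries against 3 cannot go below 0.10. The number of the 13 mRNAs called lower was 2 without preconditioning+FCCP 2 and 12 without preconditioning+FCCP 3. Mitochondrial genes have nuclear copies, so their counts are less certain.

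Genes for other mitochondrial tasks are set beside the 15.0% of all genes that rose and the 16.2% that fell. Of 35 mitochondrial ribosomal protein genes, 14 fell and 2 rose. MRPL27 had 12.9, 19.7 and 27.6 CPM in the preconditioning+FCCP libraries, against 73.8, 104 and 49.7 CPM in the control libraries, with no overlap (log2 change -1.92 ± 0.30, adjusted p = 0.000599), and MRPL10 rose (1.06 ± 0.18, adjusted p = 0.000904). The number that fell was 5 without preconditioning+FCCP 2, 6 without control 2 and 9 without preconditioning+FCCP 1. Of 19 import genes, 2 rose and 3 fell, near those shares (median -0.19, and 0.01 with library totals only). TOMM70, an outer membrane receptor for carrier proteins, rose (0.67 ± 0.16, adjusted p = 0.00703), while TOMM22, the central receptor of the outer membrane pore, fell (-0.73 ± 0.18, adjusted p = 0.00823). Of 16 chaperones and proteases, 4 rose and 1 fell. The faller was HSPE1, the co-chaperonin HSP10, at 8.57, 11.7 and 24.9 CPM in the preconditioning+FCCP libraries, against 71.3, 50.9 and 38.4 CPM in the control libraries, with no overlap (log2 change -1.83 ± 0.34, adjusted p = 0.00172). Its partner HSPD1, HSP60, did not pass the test (596, 523 and 611 CPM in preconditioning+FCCP 1 to 3 and 328, 372 and 1054 CPM in control 1 to 3; log2 change -0.02 ± 0.34, adjusted p = 0.972), with control 3 far above all other libraries and control 1 and 2 below them. Its sign turned without control 3, to 0.68 with an adjusted p of 0.0256. LONP1, the matrix protease, did not pass it either (log2 change -0.21 ± 0.19, adjusted p = 0.424). The number of chaperones and proteases that rose was 0 without control 1, 1 without preconditioning+FCCP 2 or control 2 and 2 without preconditioning+FCCP 1.

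In the matrix carbon pathways, 4 of 23 genes of pyruvate entry and the TCA cycle rose and 6 fell (median -0.13, and 0.05 with library totals only). MPC1, a subunit of the pyruvate carrier of the inner membrane, had 41.1, 40.6 and 44.7 CPM in the preconditioning+FCCP libraries, against 19.6, 19.8 and 18.0 CPM in the control libraries. Both groups were tight and apart (log2 change 1.14 ± 0.21, adjusted p = 0.00165). SUCLG2, a succinyl-CoA ligase subunit, and PDHB, a pyruvate dehydrogenase subunit, fell (-1.17 ± 0.23 and -1.06 ± 0.23, adjusted p = 0.00215 and 0.00365). Of 15 genes of calcium entry, permeability transition and proton or nucleotide carriers, 1 rose and 4 fell (median -0.33). UCP2, an uncoupling protein, had 3.13, 2.63 and 5.88 CPM in the preconditioning+FCCP libraries, against 27.1, 24.5 and 8.01 CPM in the control libraries, with no overlap (log2 change -2.37 ± 0.48, adjusted p = 0.00264). PPIF, cyclophilin D, the regulator of the permeability transition pore, had 85.5, 75.0 and 75.1 CPM in the preconditioning+FCCP libraries, against 116, 132 and 177 CPM in the control libraries, likewise apart (log2 change -0.85 ± 0.20, adjusted p = 0.00538). SLC25A4, the heart form of the adenine nucleotide carrier, was called higher (log2 change 1.04 ± 0.29, adjusted p = 0.0128), and this call did not hold without preconditioning+FCCP 2 or control 1, the largest adjusted p being 0.0728. The number of TCA genes called higher was 1 without preconditioning+FCCP 1 or control 1 or control 2 and 2 without preconditioning+FCCP 2, and that of the calcium and carrier genes called lower 2 without preconditioning+FCCP 1 or preconditioning+FCCP 2 or control 1 or control 2 and 8 without control 3.

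Of 13 mitophagy genes tested, none rose and 3 fell (median -0.09, and 0.14 with library totals only). Besides BNIP3, these were BNIP3L, its relative (log2 change -1.43 ± 0.39, adjusted p = 0.0124), whose call did not hold without preconditioning+FCCP 2 or control 2, the largest adjusted p being 0.0613, and FKBP8 (log2 change -0.69 ± 0.22, adjusted p = 0.0280), whose call did not hold without preconditioning+FCCP 1, preconditioning+FCCP 2, control 1 or control 2, the largest adjusted p being 0.102. PINK1, the kinase that marks depolarised mitochondria, did not pass the test at 21.7, 15.4 and 9.15 CPM in preconditioning+FCCP 1 to 3 and 11.7, 14.1 and 15.6 CPM in control 1 to 3 (log2 change 0.16 ± 0.27, adjusted p = 0.679). Of 12 fusion and fission genes, 3 rose and none fell, MTFR1 among them (log2 change 0.60 ± 0.15, adjusted p = 0.00920; this call did not hold without preconditioning+FCCP 2, with an adjusted p of 0.0547), and the fusion gene MFN2 did not pass the test (log2 change 0.23 ± 0.16, adjusted p = 0.288). Of 13 biogenesis genes, 2 rose and 1 fell, and the coactivator gene PPARGC1A was below 1 CPM in all 6 libraries (log2 change 0.36 ± 0.47, adjusted p = 0.584). The number of mitophagy genes that fell was 1 without preconditioning+FCCP 2 or control 2, and that of fusion and fission genes that rose 1 without preconditioning+FCCP 1 or preconditioning+FCCP 2 or control 1 or control 2. The number of biogenesis genes that rose was 0 without preconditioning+FCCP 1 or control 1 or control 2, 1 without preconditioning+FCCP 2 and 5 without control 3, and the number that fell 0 without preconditioning+FCCP 1 or preconditioning+FCCP 2 or control 1 or control 2.

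Of the transcription factors of the integrated stress response, ATF3 and DDIT3 rose, and ATF4, ATF5, CEBPB and CEBPG did not pass the test. Of 18 regulators, 6 rose, or more than the 15.0% of all genes by share, and 2 fell, with a median of 0.54. ATF3, a stress-induced repressor and activator, had 121, 203 and 355 CPM in the preconditioning+FCCP libraries, against 24.2, 24.2 and 40.6 CPM in the control libraries. The level was lowest in preconditioning+FCCP 1 and highest in preconditioning+FCCP 3, and the groups did not overlap (log2 change 2.93 ± 0.50, adjusted p = 0.00100). DDIT3, which encodes CHOP, the pro-apoptotic factor of this pathway, had 71.5, 66.5 and 110.0 CPM in the preconditioning+FCCP libraries, against 21.4, 17.5 and 19.4 CPM in the control libraries. The control libraries were nearly alike and all far lower (log2 change 2.09 ± 0.45, adjusted p = 0.00344). EIF2AK3, the ER kinase PERK, had 37.2, 26.1 and 31.7 CPM in the preconditioning+FCCP libraries, against 8.08, 8.44 and 19.3 CPM in the control libraries, also apart (log2 change 1.41 ± 0.31, adjusted p = 0.00380). PPP1R15A, the phosphatase subunit GADD34 that ends the response, was called higher (log2 change 1.38 ± 0.38, adjusted p = 0.0127), and this call did not hold without control 1 or control 2, the largest adjusted p being 0.0672. ATF4 itself, whose protein is controlled mainly by translation, had 1228, 1270.4 and 2482 CPM in the preconditioning+FCCP libraries, against 1006, 1002 and 709 CPM in the control libraries. The groups did not overlap, but the gene missed the threshold (log2 change 0.87 ± 0.35, adjusted p = 0.0690). With the library set as a term it was called, at 1.06 with an adjusted p of 0.0168. It was also called with library totals only (1.05, adjusted p = 0.0149), DESeq2's test (0.88, adjusted p = 0.0429), no filter (0.94, adjusted p = 0.00101) and in the lower-share set alone (0.82, adjusted p = 0.00431). Without 1 library it was not called, with a log2 change of 0.43 without preconditioning+FCCP 3. CHAC1, a glutathione-degrading target, did not pass it either (log2 change 1.01 ± 0.96, adjusted p = 0.441). TRIB3, a pseudokinase target of CHOP, was called higher (log2 change 1.80 ± 0.59, adjusted p = 0.0306), and this call did not hold without preconditioning+FCCP 1, preconditioning+FCCP 2, control 1 or control 2, the largest adjusted p being 0.123. Called lower were OMA1, the inner membrane protease that cleaves DELE1 (log2 change -1.21 ± 0.36, adjusted p = 0.0203), and DDIT4, an inhibitor of mTORC1 (log2 change -1.16 ± 0.35, adjusted p = 0.0204). The OMA1 call did not hold without preconditioning+FCCP 1 or control 2, the largest adjusted p being 0.0698, and the DDIT4 call did not hold without preconditioning+FCCP 1, preconditioning+FCCP 2 or control 2, the largest adjusted p being 0.159. The number of regulators that rose was 3 without control 1 or control 2.

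Among the enzymes of amino acid and one-carbon metabolism that ATF4 can drive, 5 of 15 rose and none fell (median 0.50). CTH, which makes cysteine from cystathionine, had 35.6, 34.0 and 41.9 CPM in the preconditioning+FCCP libraries, against 8.49, 7.16 and 10.6 CPM in the control libraries. The groups were far apart (log2 change 2.08 ± 0.39, adjusted p = 0.00173). PHGDH, the first step of serine synthesis, had 946, 758 and 732 CPM in the preconditioning+FCCP libraries, against 349.9, 452 and 428 CPM in the control libraries, with no overlap (log2 change 0.99 ± 0.24, adjusted p = 0.00698). ASNS, asparagine synthetase, was called higher (17.9, 14.2 and 12.6 CPM in preconditioning+FCCP 1 to 3 and 0.401, 0.911 and 4.94 CPM in control 1 to 3; log2 change 2.84 ± 1.02, adjusted p = 0.0440), but its call did not hold without preconditioning+FCCP 1, preconditioning+FCCP 2, preconditioning+FCCP 3, control 1 or control 2, the largest adjusted p being 0.144. Of 12 amino acid transporters tested, 5 rose and none fell (median 0.76). SLC1A4, a carrier of alanine, serine and cysteine, had 219, 169.8 and 87.9 CPM in the preconditioning+FCCP libraries, against 18.9, 21.4 and 50.2 CPM in the control libraries. Preconditioning+FCCP 3 and control 3 came closest (log2 change 2.40 ± 0.46, adjusted p = 0.00194). SLC7A11, the cystine importer, was called higher (log2 change 1.72 ± 0.51, adjusted p = 0.0185), and this call did not hold without preconditioning+FCCP 1, control 1 or control 2, the largest adjusted p being 0.0858.

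The stress factors that such cells secrete went the other way. Of 7 tested, none rose and 4 fell (median -1.20). GDF15, a hormone made under mitochondrial stress, had 17.3, 21.4 and 18.0 CPM in the preconditioning+FCCP libraries, against 44.2, 22.5 and 63.1 CPM in the control libraries. The groups did not overlap, but control 2 was close to preconditioning+FCCP 2 (log2 change -1.20 ± 0.37, adjusted p = 0.0244), and the call did not hold without preconditioning+FCCP 1, preconditioning+FCCP 2, preconditioning+FCCP 3, control 1 or control 3, the largest adjusted p being 0.0794. ADM, adrenomedullin, was called lower with overlap (24.6, 73.2 and 151 CPM in preconditioning+FCCP 1 to 3 and 304, 542 and 149.5 CPM in control 1 to 3; log2 change -2.0 ± 0.57, adjusted p = 0.0164), and this call did not hold without preconditioning+FCCP 1, preconditioning+FCCP 2 or control 2, the largest adjusted p being 0.0841. FGF21 was too low to test, with 7, 5 and 1 counts in the preconditioning+FCCP libraries and 1, 6 and 0 counts in the control libraries. Of 20 tRNA synthetases, 2 rose and 2 fell. Within the sets, the median of the regulators was 0.38 for preconditioning+FCCP 1 and 2 over control 3 and 1.03 for preconditioning+FCCP 3 over control 1 and 2, and that of the enzymes 0.52 for preconditioning+FCCP 1 and 2 over control 3 and 0.34 for preconditioning+FCCP 3 over control 1 and 2. In the same order, the secreted factor median was -1.60 and -0.30, and the transporter median 0.29 and 0.87. The number of secreted factors called lower was 0 without preconditioning+FCCP 2, 1 without preconditioning+FCCP 1 and 2 without preconditioning+FCCP 3 or control 1 or control 2 or control 3, that of enzymes called higher 3 without preconditioning+FCCP 1 or preconditioning+FCCP 2 or control 1 or control 2, and that of transporters called higher 2 without preconditioning+FCCP 1 or control 1 or control 2 and 3 without preconditioning+FCCP 2. The number of tRNA synthetases that rose was 0 without preconditioning+FCCP 1 or preconditioning+FCCP 2 or preconditioning+FCCP 3 or control 1 or control 2 and 7 without control 3.

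The letters upstream of these genes were also read, since ATF4 and C/EBP proteins bind composite elements with the core TGATGCA. Windows of 250 bases before each gene's start came from RefSeq (GRCh38.p14), and the motif was searched on both strands. It was found in 4 of 42 members of the regulator, enzyme, transporter and secreted factor lists with a window, or 9.52%, against 2.22% of all 27305 windows. Only 1 of the 14 members called higher held it, PHGDH, as did 2 of the 23 not called. The PHGDH window, shown because it is that member, lies at chr1:119711684-119711933 on the plus strand, and the capitals mark the match, which begins 243 bases before the start.
PHGDH: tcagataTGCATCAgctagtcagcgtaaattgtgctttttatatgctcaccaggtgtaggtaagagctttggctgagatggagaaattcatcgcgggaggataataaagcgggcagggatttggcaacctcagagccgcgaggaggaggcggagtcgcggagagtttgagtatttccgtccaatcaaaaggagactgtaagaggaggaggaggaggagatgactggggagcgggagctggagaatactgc
Another motif, TGACGTC, part of the cyclic AMP response element, was chosen after values had been seen. It occurred on either strand in 2 of 16 immediate early genes with a window, NR4A3 and JUND, against 3.29% of all windows. NR4A3 rose and JUND was not called. The NR4A3 window lies at chr9:99821635-99821884 on the plus strand, with the match in capitals 83 bases before the start.
NR4A3: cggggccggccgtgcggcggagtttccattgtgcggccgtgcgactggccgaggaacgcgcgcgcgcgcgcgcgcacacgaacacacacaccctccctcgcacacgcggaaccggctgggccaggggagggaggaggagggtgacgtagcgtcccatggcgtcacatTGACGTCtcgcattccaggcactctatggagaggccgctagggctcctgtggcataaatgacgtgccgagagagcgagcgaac
A match describes letters and not binding.

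Unfolded protein response genes of the endoplasmic reticulum (ER) rose in part: 10 of 22 genes rose, none fell, and the median was 0.72. ERN1, the ER stress sensor IRE1, had 78.1, 62.7 and 59.2 CPM in the preconditioning+FCCP libraries, against 9.86, 11.7 and 24.3 CPM in the control libraries. Every preconditioning+FCCP library was above every control, control 3 being the highest of the controls (log2 change 2.13 ± 0.43, adjusted p = 0.00260). ATF6, the sensor cleaved in the Golgi, had 176, 129.6 and 89.8 CPM in the preconditioning+FCCP libraries, against 36.6, 38.7 and 75.1 CPM in the control libraries. Preconditioning+FCCP 3 came close to control 3 (log2 change 1.39 ± 0.28, adjusted p = 0.00240). DNAJB9, an ER co-chaperone induced by XBP1, had 60.2, 53.2 and 61.3 CPM in the preconditioning+FCCP libraries, against 15.1, 12.9 and 25.6 CPM in the control libraries, with no overlap (log2 change 1.70 ± 0.30, adjusted p = 0.00116), and SYVN1, the ubiquitin ligase of ER-associated degradation, changed by 1.13 ± 0.19 (adjusted p = 0.000814). HSPA5, the main ER chaperone BiP, did not pass the test (log2 change 0.42 ± 0.37, adjusted p = 0.403). The median was 0.12 for preconditioning+FCCP 1 and 2 over control 3 and 0.94 for preconditioning+FCCP 3 over control 1 and 2. None of the cytosolic heat shock genes was called higher: 1 of 19 fell, HSPB1 (log2 change -1.24 ± 0.33, adjusted p = 0.0108), and its call did not hold without preconditioning+FCCP 2, with an adjusted p of 0.0552. The number called higher was 2 without control 3, and the number called lower 0 without preconditioning+FCCP 2, 2 without preconditioning+FCCP 3 or control 1 and 3 without control 2. HSPA1A, inducible HSP70, was among those not called (log2 change -2.02 ± 0.80, adjusted p = 0.0647), and the list median of -0.51 was -1.39 for preconditioning+FCCP 1 and 2 over control 3 and 0.41 for preconditioning+FCCP 3 over control 1 and 2.

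Immediate early genes, which mostly encode transcription factors made within minutes of a signal, included large rises. Of 23 tested, 10 rose and 5 fell, and the median was 0.83. FOSB, a partner of JUN in AP-1, had 30.2, 502 and 362 CPM in the preconditioning+FCCP libraries, against 1.03, 3.70 and 3.13 CPM in the control libraries. Preconditioning+FCCP 1 was well below the other two and still above all controls (log2 change 6.83 ± 0.81, adjusted p = 0.000140). ARC, a capsid-like regulator of synapses, had 4.00, 3.70 and 4.86 CPM in the preconditioning+FCCP libraries, against 0.172, 0.243 and 0.250 CPM in the control libraries. Its groups were tight and far apart (log2 change 4.20 ± 0.44, adjusted p = 7.10e-05). NR4A3 and NR4A2 encode orphan nuclear receptors. NR4A3 had 10.3, 11.3 and 6.67 CPM in the preconditioning+FCCP libraries, against 0.172, 0.243 and 1.31 CPM in the control libraries, with control 3 the highest control (log2 change 4.03 ± 0.76, adjusted p = 0.00168), and NR4A2 had 8.17, 15.4 and 16.7 CPM in the preconditioning+FCCP libraries, against 2.35, 1.70 and 1.31 CPM in the control libraries (log2 change 2.90 ± 0.36, adjusted p = 0.000186). EGR1 and EGR2, zinc finger factors, rose too (2.27 ± 0.42 and 3.22 ± 0.55, adjusted p = 0.00160 and 0.000981). FOSL1, the AP-1 partner FRA-1, went the other way at 104, 114 and 152 CPM in the preconditioning+FCCP libraries, against 453, 315 and 449.8 CPM in the control libraries, with no overlap (log2 change -1.72 ± 0.25, adjusted p = 0.000385). MYC had 11.3, 22.3 and 30.8 CPM in the preconditioning+FCCP libraries, against 27.5, 85.5 and 74.1 CPM in the control libraries, with control 1 inside the range of the preconditioning+FCCP libraries (log2 change -1.54 ± 0.39, adjusted p = 0.00822). The number called lower was 3 without preconditioning+FCCP 1 or preconditioning+FCCP 2 or control 2 or control 3.

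Of the negative regulators of MAP kinase signalling, 3 of 13 were higher and 1 lower, against 15.0% and 16.2% of all genes. ERRFI1, an inhibitor of the EGF receptor, had 168, 177 and 179 CPM in the preconditioning+FCCP libraries, against 41.9, 53.1 and 75.7 CPM in the control libraries. The preconditioning+FCCP libraries were nearly equal and above all controls (log2 change 1.62 ± 0.40, adjusted p = 0.00721). The call of the phosphatase gene DUSP6 (log2 change 1.30 ± 0.42, adjusted p = 0.0285) did not hold without preconditioning+FCCP 2, preconditioning+FCCP 3, control 1 or control 2, the largest adjusted p being 0.130. Several other strong rises were in signalling genes. NGFR, the p75 neurotrophin receptor, had 23.5, 41.4 and 19.1 CPM in the preconditioning+FCCP libraries, against 0.573, 0.304 and 1.50 CPM in the control libraries, far apart (log2 change 5.14 ± 0.86, adjusted p = 0.000871). RND1, a small GTPase that loosens actin stress fibres, had 10.5, 14.7 and 29 CPM in the preconditioning+FCCP libraries, against 1.49, 1.15 and 1.31 CPM in the control libraries, also far apart (log2 change 3.77 ± 0.54, adjusted p = 0.000395). RASD1, a Ras-like protein induced by glucocorticoids, and RRAGD, a Rag GTPase that signals amino acids to mTORC1, changed by 2.90 ± 0.43 and 3.62 ± 0.53 (adjusted p = 0.000422 and 0.000412). The collagen gene COL20A1 (log2 change 4.86 ± 0.86, adjusted p = 0.00116), FAM222A (log2 change 3.85 ± 0.80, adjusted p = 0.00297), the protocadherin gene PCDH10 (log2 change 3.37 ± 0.47, adjusted p = 0.000322) and the unnamed gene ENSG00000261888 (log2 change 3.61 ± 0.74, adjusted p = 0.00264) were the rest of the 10 largest rises. Of the MAP kinase list, the number called higher was 1 without preconditioning+FCCP 2 or control 1 and 5 without control 3.

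Notch pathway genes, listed after values had been seen, rose in 5 of 11 tested and fell in 1. The ligand gene DLL4 had 312 counts in the preconditioning+FCCP libraries together and 11 in the control libraries (log2 change 4.53 ± 0.89, adjusted p = 0.00222). DLL1, another ligand, had 3.71, 4.64 and 4.12 CPM in the preconditioning+FCCP libraries, against 0.688, 0.486 and 0.375 CPM in the control libraries, with no overlap (log2 change 2.99 ± 0.40, adjusted p = 0.000253). HES6, a HES family regulator, had 62.7, 51.5 and 43.0 CPM in the preconditioning+FCCP libraries, against 13.8, 14.6 and 12.3 CPM in the control libraries, with tight groups far apart (log2 change 1.95 ± 0.23, adjusted p = 0.000140). NRARP, a feedback inhibitor of the pathway, changed by 1.67 ± 0.42 (adjusted p = 0.00877), and the receptor gene NOTCH1 did not pass the test (log2 change 0.59 ± 0.25, adjusted p = 0.0880). The number that rose was 9 without control 3.

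Among 16 genes of the BCL2 family, 3 rose and 2 fell, near the 15.0% and 16.2% of all genes by share. The risers were all BH3-only genes, whose products start mitochondrial apoptosis. BCL2L11, which encodes BIM, had 36.0, 39.8 and 53 CPM in the preconditioning+FCCP libraries, against 5.85, 7.04 and 8.38 CPM in the control libraries. Every preconditioning+FCCP library was several times above every control (log2 change 2.60 ± 0.42, adjusted p = 0.000690). BMF, another BH3-only gene, changed by 1.34 ± 0.36 (adjusted p = 0.0119), and its call did not hold without control 1, with an adjusted p of 0.0515. BBC3, which encodes PUMA, changed by 0.88 ± 0.27 (adjusted p = 0.0237), and its call did not hold without preconditioning+FCCP 2, preconditioning+FCCP 3, control 1 or control 3, the largest adjusted p being 0.109. BCL2L1, which encodes the survival protein BCL-XL, had 34.1, 38.4 and 49.3 CPM in the preconditioning+FCCP libraries, against 89.3, 71.0 and 91.4 CPM in the control libraries, with no overlap (log2 change -1.05 ± 0.19, adjusted p = 0.00158). BOK, a BAX-like effector, fell (-1.45 ± 0.30, adjusted p = 0.00309), and MCL1, another survival gene, did not pass the test (log2 change 0.56 ± 0.23, adjusted p = 0.0807). The number of family members that rose was 1 without control 1, and the number that fell 4 without preconditioning+FCCP 3.

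Of 22 p53 targets, 10 rose and 1 fell (median 0.56). RRM2B, a ribonucleotide reductase subunit for DNA repair and mitochondrial DNA, had 99.8, 91.7 and 67.1 CPM in the preconditioning+FCCP libraries, against 43.5, 43.4 and 35.7 CPM in the control libraries, with no overlap (log2 change 1.08 ± 0.20, adjusted p = 0.00151). TNFRSF10B, the death receptor DR5, which CHOP also drives, had 241, 225 and 108 CPM in the preconditioning+FCCP libraries, against 48.1, 49.1 and 99.1 CPM in the control libraries. Preconditioning+FCCP 3 was only just above control 3 (log2 change 1.55 ± 0.32, adjusted p = 0.00301). SESN1, a sestrin that restrains mTORC1, and BTG2, an antiproliferative gene, changed by 1.29 ± 0.27 and 1.13 ± 0.24 (adjusted p = 0.00277 and 0.00316). The classical targets CDKN1A, which encodes p21, and MDM2 did not pass the test (log2 change 0.29 ± 0.21, adjusted p = 0.303 for CDKN1A, and log2 change -0.40 ± 0.17, adjusted p = 0.0835 for MDM2). The p53 list was steady within the sets, at 0.55 for preconditioning+FCCP 1 and 2 over control 3 and 0.49 for preconditioning+FCCP 3 over control 1 and 2.

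Autophagy genes rose in 7 of 20 tested and fell in 2 (median 0.34). ULK1, the kinase that starts autophagosome formation, had 349, 325 and 310.1 CPM in the preconditioning+FCCP libraries, against 94.1, 96.0 and 118 CPM in the control libraries. Both groups were tight and well apart (log2 change 1.67 ± 0.23, adjusted p = 0.000289). MAP1LC3B, which encodes LC3B on the autophagosome membrane, had 416, 349.9 and 444 CPM in the preconditioning+FCCP libraries, against 179.9, 216 and 189 CPM in the control libraries, with no overlap (log2 change 1.05 ± 0.23, adjusted p = 0.00378). WIPI1 and GABARAPL1 changed by 1.14 ± 0.24 and 0.91 ± 0.23 (adjusted p = 0.00327 and 0.00727). The groups overlapped for the cargo receptor gene SQSTM1, with control 3 inside the range of the preconditioning+FCCP libraries (356, 283 and 157 CPM in preconditioning+FCCP 1 to 3 and 62.8, 69.8 and 269 CPM in control 1 to 3; log2 change 0.99 ± 0.44, adjusted p = 0.0982). It was called with the library set as a term (0.75, adjusted p = 0.0282), with limma-voom (1.25, adjusted p = 0.0345), with no filter (1.04, adjusted p = 8.89e-05), without control 3 (1.96, adjusted p = 0.000327) and without both replicate 3 libraries (2.23, adjusted p = 2.22e-05). The list was 0.36 for preconditioning+FCCP 1 and 2 over control 3 and 0.33 for preconditioning+FCCP 3 over control 1 and 2 within the sets. Of 21 lysosomal genes, 4 rose and none fell, close to the background. In energy sensing, 3 of 15 rose and 3 fell. SESN3, a sestrin, had 24.2, 18.1 and 15.0 CPM in the preconditioning+FCCP libraries, against 2.64, 2.55 and 1.63 CPM in the control libraries, far apart (log2 change 3.07 ± 0.38, adjusted p = 0.000168). PRKAB1, a subunit of the energy sensor AMPK, had 98.2, 95.9 and 73.6 CPM in the preconditioning+FCCP libraries, against 22.0, 28.2 and 38 CPM in the control libraries, with no overlap (log2 change 1.60 ± 0.27, adjusted p = 0.000906). TXNIP, which limits glucose uptake and binds thioredoxin, had 110.3, 165 and 94.4 CPM in the preconditioning+FCCP libraries, against 688, 549 and 235 CPM in the control libraries, lower without overlap (log2 change -1.99 ± 0.51, adjusted p = 0.00943). The number of lysosomal genes that rose was 0 without control 2, 1 without preconditioning+FCCP 1 or preconditioning+FCCP 2 or control 1 and 8 without control 3, and that of energy sensing genes 5 without preconditioning+FCCP 3.

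Antioxidant enzymes fell, with 9 of 18 lower, none higher and a median of -0.56. GLRX, glutaredoxin, had 18.1, 22.8 and 37.5 CPM in the preconditioning+FCCP libraries, against 64.5, 91.0 and 62.6 CPM in the control libraries, with no overlap (log2 change -1.48 ± 0.25, adjusted p = 0.000894). PRDX3, the mitochondrial peroxiredoxin, was called lower with overlap (129, 121 and 203 CPM in preconditioning+FCCP 1 to 3 and 419, 419 and 159 CPM in control 1 to 3; log2 change -1.14 ± 0.30, adjusted p = 0.0101), and this call did not hold without preconditioning+FCCP 2, with an adjusted p of 0.0501. The number of antioxidant genes that fell was 1 without preconditioning+FCCP 2, 3 without control 2 and 5 without preconditioning+FCCP 1. Targets of the antioxidant factor NRF2 were called at shares close to the 15.0% and 16.2% of all genes, with 4 of 20 up and 4 down (median 0.10). GCLC, the catalytic subunit of the first enzyme of glutathione synthesis, had 68.7, 85.8 and 95.9 CPM in the preconditioning+FCCP libraries, against 28.7, 32.2 and 31.2 CPM in the control libraries, well apart (log2 change 1.45 ± 0.25, adjusted p = 0.000986), whereas TKT, transketolase, and AKR1B1, aldose reductase, fell (-0.84 ± 0.20 and -1.03 ± 0.21, adjusted p = 0.00616 and 0.00240). HMOX1, heme oxygenase, did not pass the test (69.3, 119 and 108 CPM in preconditioning+FCCP 1 to 3 and 49.3, 63.4 and 272 CPM in control 1 to 3; log2 change -0.38 ± 0.45, adjusted p = 0.544). Its sign turned without control 3, to 0.78 with an adjusted p of 0.0197. Among 7 metallothionein and zinc genes tested, 3 rose and 1 fell. SLC30A1, a zinc exporter, had 134, 157 and 135 CPM in the preconditioning+FCCP libraries, against 18.5, 21.1 and 71.3 CPM in the control libraries, with control 3 the highest control (log2 change 1.95 ± 0.41, adjusted p = 0.00327). The number of NRF2 targets that rose was 1 without preconditioning+FCCP 1 or control 1 or control 2, 2 without preconditioning+FCCP 2 and 7 without control 3, and the number that fell 2 without preconditioning+FCCP 1 or preconditioning+FCCP 2 or control 1 or control 2.

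In the translation machinery, 4 of 39 large and 1 of 31 small subunit ribosomal protein genes fell and none rose, below the background share with all 6 libraries (medians -0.34 and -0.18, the small subunit median 0.01 with library totals only). Host genes of small nucleolar RNAs, whose spliced transcripts are normally removed by translation-coupled decay, rose in 5 of 14 and fell in none (median 0.87). SNHG12 had 50.9, 104 and 257 CPM in the preconditioning+FCCP libraries, against 25.9, 17.5 and 31.7 CPM in the control libraries, and SNHG7 had 123, 136 and 261 CPM in the preconditioning+FCCP libraries, against 58.2, 57.3 and 76.8 CPM in the control libraries. Both were highest in preconditioning+FCCP 3 and without overlap (log2 change 2.46 ± 0.52, adjusted p = 0.00316 for SNHG12, and log2 change 1.44 ± 0.29, adjusted p = 0.00259 for SNHG7). The median was 0.18 for preconditioning+FCCP 1 and 2 over control 3 and 1.77 for preconditioning+FCCP 3 over control 1 and 2. Of 24 ribosome biogenesis genes, 3 fell, MYC included, and none rose, and of 27 proteasome genes, 3 fell and none rose (medians -0.01 and -0.13; the proteasome median was 0.05 with library totals only). These counts rested on single libraries: the number of large subunit genes that fell was 0 without preconditioning+FCCP 1 or preconditioning+FCCP 2 or control 2, 1 without control 1, 18 without control 3 and 27 without preconditioning+FCCP 3, that of small subunit genes 0 without preconditioning+FCCP 1 or preconditioning+FCCP 2 or control 1 or control 2, 9 without control 3 and 12 without preconditioning+FCCP 3, that of ribosome biogenesis genes 1 without preconditioning+FCCP 2, and that of proteasome genes 1 without preconditioning+FCCP 2 and 9 without preconditioning+FCCP 3. The number of ribosome biogenesis genes that rose was 3 without control 3, that of proteasome genes that rose 3 without control 3, and that of small nucleolar RNA host genes that fell 2 without preconditioning+FCCP 3.

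Cell cycle genes moved in a few members. Of 20 mitosis genes, 6 fell and none rose, CCNB1, cyclin B1, among them at 182, 126 and 175 CPM in the preconditioning+FCCP libraries, against 290.5, 352 and 320.0 CPM in the control libraries, with no overlap (log2 change -0.99 ± 0.19, adjusted p = 0.00215). Of 24 replication genes, 4 rose and 4 fell, near the 15.0% and 16.2% of all genes. UHRF1, which recruits the maintenance DNA methyltransferase, had 102, 94.1 and 102 CPM in the preconditioning+FCCP libraries, against 290.2, 311 and 227 CPM in the control libraries, well apart (log2 change -1.47 ± 0.21, adjusted p = 0.000358), and RRM2, the S-phase ribonucleotide reductase subunit, fell (-0.98 ± 0.23, adjusted p = 0.00593). Of 16 clock genes, 3 rose and 4 fell, against the same shares of all genes. BMAL1, the positive arm of the clock, rose (1.23 ± 0.24, adjusted p = 0.00194) and PER3, of the negative arm, fell (-1.64 ± 0.37, adjusted p = 0.00416), while CRY2, also of the negative arm, rose (1.65 ± 0.38, adjusted p = 0.00538). Of 14 histone genes, 2 rose and none fell, and the number that fell was 1 without preconditioning+FCCP 3 and 3 without control 3. The number of mitosis genes that fell was 3 without preconditioning+FCCP 2, and that of clock genes 1 without preconditioning+FCCP 1 or preconditioning+FCCP 2 or control 2.

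**Figure D3:**
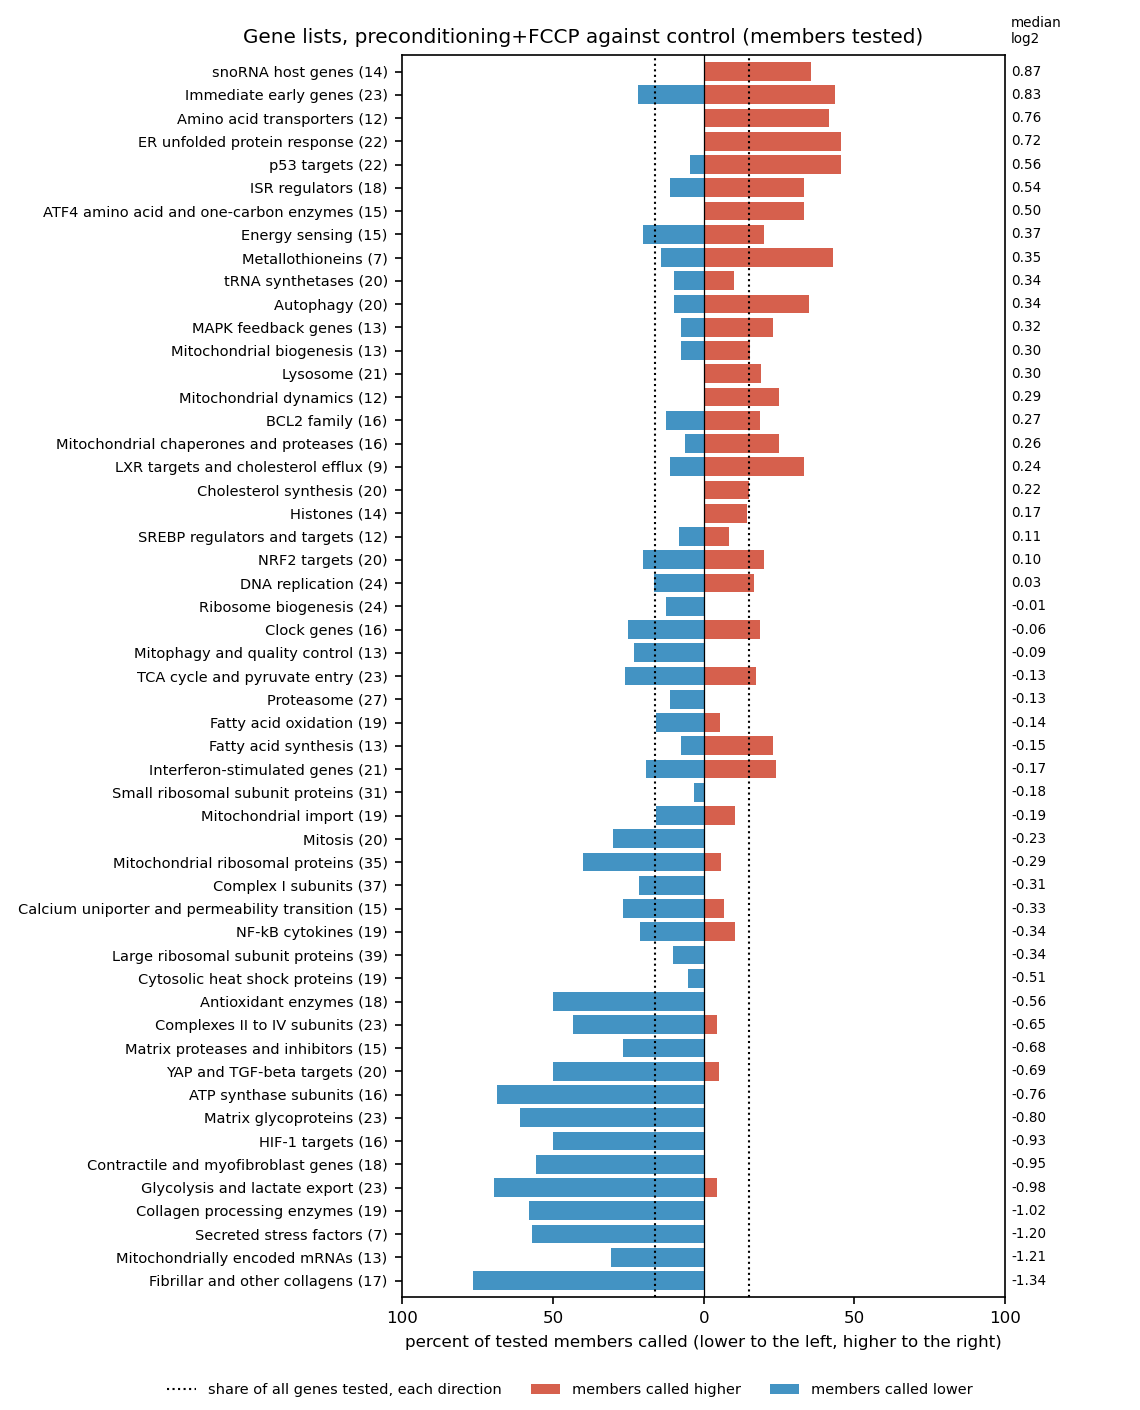
Percent of tested members called higher (red, to the right) and lower (blue, to the left) in preconditioning+FCCP against control for the gene lists, without the marker lists and the lists drawn up after values had been seen, ordered by median log2 change, which is printed at the right with the number tested in brackets at the left. Dotted lines give the shares of all genes tested, 15.0% higher and 16.2% lower. Of the lists drawn, collagens, glycolysis and ATP synthase reach furthest to the left, and ER unfolded protein response, p53 targets and immediate early genes furthest to the right.

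Sterol synthesis changed in few members. Against control, 3 of 20 genes rose after both treatments and none fell, at the background share, with a median of 0.22. The number that fell was 1 without control 1 or control 3 and 2 without preconditioning+FCCP 3. The median of the same genes against the same control libraries was 1.06 for FCCP alone and 1.59 for preconditioning alone. HMGCS1, an early enzyme of the pathway, did not pass the test after both treatments (60.2, 45.7 and 37.8 CPM in preconditioning+FCCP 1 to 3 and 33.3, 46.9 and 27.8 CPM in control 1 to 3; log2 change 0.41 ± 0.40, adjusted p = 0.450), and its log2 change was 1.76 for FCCP alone and 3.52 for preconditioning alone. SC5D, a late enzyme, and IDI1, in the isoprenoid part, rose (1.14 ± 0.19 and 1.24 ± 0.28, adjusted p = 0.000759 and 0.00431). Of 12 genes listed as SREBP regulators and targets, 1 rose and 1 fell. The riser was MYLIP, a ubiquitin ligase gene known as an LXR target (log2 change 1.17 ± 0.31, adjusted p = 0.0106). Its call did not hold without preconditioning+FCCP 3, with an adjusted p of 0.0727. Of 9 LXR targets, which serve cholesterol export, 3 rose and 1 fell, and the number that rose was 1 without preconditioning+FCCP 2 or control 1. The fatty acid lists stayed near 0, with medians of -0.15 for synthesis and -0.14 for oxidation, and 0.05 and 0.07 with library totals only. ACSL3, an acyl-CoA synthetase, had 209, 162 and 151 CPM in the preconditioning+FCCP libraries, against 67.6, 66.7 and 95.8 CPM in the control libraries, higher without overlap (log2 change 1.18 ± 0.22, adjusted p = 0.00183).

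Other lists can be set beside the single treatments in the same way, all 3 comparisons sharing the control libraries. The FCCP-alone libraries were not alike, and their medians pool them. On the first principal component FCCP 1 lay at 33.1, and FCCP 2 and 3 at -22.7 and -31.2. FCCP 1 correlated most strongly with preconditioning+FCCP 3 (r 0.965). The ER list mean, in log2(CPM + 0.5), was 7.45 in FCCP 1, 6.89 in FCCP 2 and 6.71 in FCCP 3. The collagen median was -1.34 after both treatments, 0.00 after FCCP alone and 0.12 after preconditioning alone. The glycolysis median was -0.98 after both treatments, 0.04 after FCCP alone and 0.22 after preconditioning alone. That of contractile genes was -0.95 after both treatments, 0.09 after FCCP alone and 0.31 after preconditioning alone. For p53 targets it was 0.56 after both treatments, -0.01 after FCCP alone and 0.08 after preconditioning alone, and for ER genes 0.72 after both treatments, 0.10 after FCCP alone and -0.02 after preconditioning alone. The ATP synthase median, at -0.76, was 0.08 after FCCP alone and -0.85 after preconditioning alone, and that of the mitochondrial mRNAs, at -1.21, was -1.02 after FCCP alone and -2.33 after preconditioning alone. For single genes, the log2 changes after both treatments, FCCP alone and preconditioning alone were 6.83, 3.32 and -0.18 for FOSB, 4.20, 3.77 and -0.16 for ARC, -3.65, -0.41 and -0.45 for GJA1, and -2.57, -0.32 and -0.10 for ACTG1. Tested directly, the combined treatment changed COL1A1 by -2.72 ± 0.28 against FCCP alone (adjusted p = 0.000169) and -2.59 ± 0.27 against preconditioning alone (adjusted p = 1.15e-05), GJA1 by -3.24 ± 0.34 against FCCP alone (adjusted p = 0.000169) and -3.20 ± 0.33 against preconditioning alone (adjusted p = 1.18e-05), LDHA by -2.67 ± 0.40 against FCCP alone (adjusted p = 0.000376) and -2.57 ± 0.39 against preconditioning alone (adjusted p = 0.000176) and BCL2L11 by 1.52 ± 0.40 against FCCP alone (adjusted p = 0.00890) and 2.37 ± 0.37 against preconditioning alone (adjusted p = 0.000232). The 4 libraries of preconditioning alone were all in the low-share set and the 3 of FCCP alone all in the high-share set, so for those comparisons set and treatment cannot be told apart except through the control libraries.

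**Figure D4:**
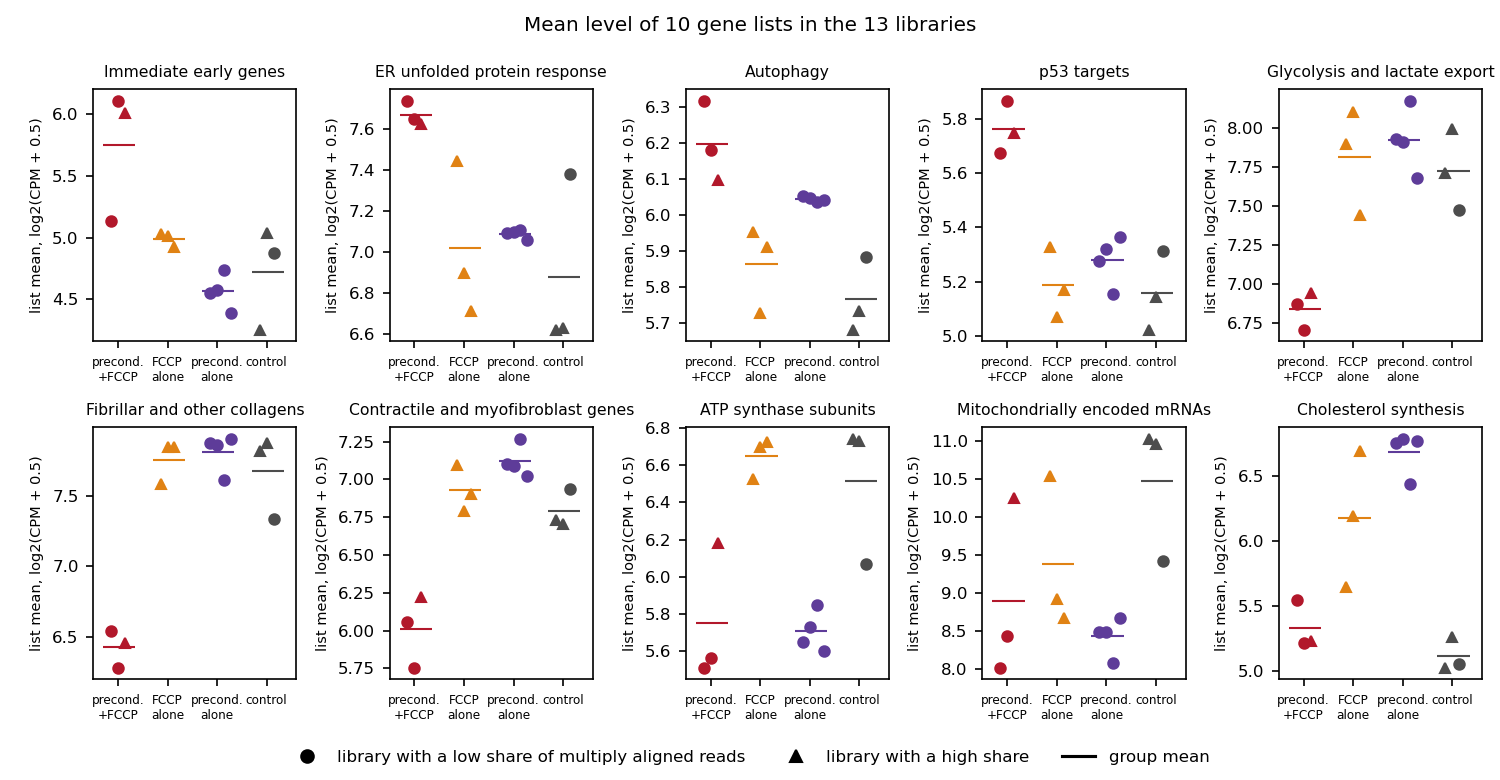
Mean of log2(CPM + 0.5) over the members of 10 gene lists (vertical axis, its range differing between panels) in all 13 libraries, by group: preconditioning+FCCP, FCCP alone, preconditioning alone and control. Circles mark libraries of the low-share set, triangles those of the high-share set, and lines the group means. Collagens and glycolysis are lowest in the 3 preconditioning+FCCP libraries, autophagy and p53 targets highest in them, and cholesterol synthesis is highest in the FCCP and preconditioning libraries.

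Among the remaining genes with the smallest adjusted p were PRX, which encodes periaxin (log2 change 2.21 ± 0.25, adjusted p = 0.000123), GCH1, the first enzyme of tetrahydrobiopterin synthesis (log2 change 2.33 ± 0.27, adjusted p = 0.000140), and TMEM38B, an ER potassium channel (log2 change 1.50 ± 0.18, adjusted p = 0.000140), all higher, and CHML, a Rab escort protein (log2 change -1.80 ± 0.16, adjusted p = 6.24e-05), and ATP8B1, a lipid flippase (log2 change -1.75 ± 0.17, adjusted p = 6.24e-05), both lower. TMEM38B had 119, 126 and 124 CPM in the preconditioning+FCCP libraries, against 51.4, 32.7 and 46.4 CPM in the control libraries. CHML had 11.6, 12.4 and 11.8 CPM in the preconditioning+FCCP libraries, against 39.9, 37.8 and 46.7 CPM in the control libraries. Neither overlapped. With the library set as a term, KLHL20, an adaptor of a cullin ubiquitin ligase (1.57 ± 0.20), and SUSD6 (2.98 ± 0.41) were among the firmest rises, and CCBE1, a lymphangiogenic factor (-2.55 ± 0.36), and NEK6, a mitotic kinase (-2.40 ± 0.30), among the firmest falls, the values being those without that term. Of 246 called genes named by the selection given in the processing notes, 232 were also called in the same direction with the set as a term, and 174 remained called when each of the 6 libraries was left out in turn. That selection drew on small p-values and on the fit with the set as a term, so these counts test nothing. Over all genes, 4479 of the 5229 calls were shared in the same direction with that fit.

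**Figure D5:**
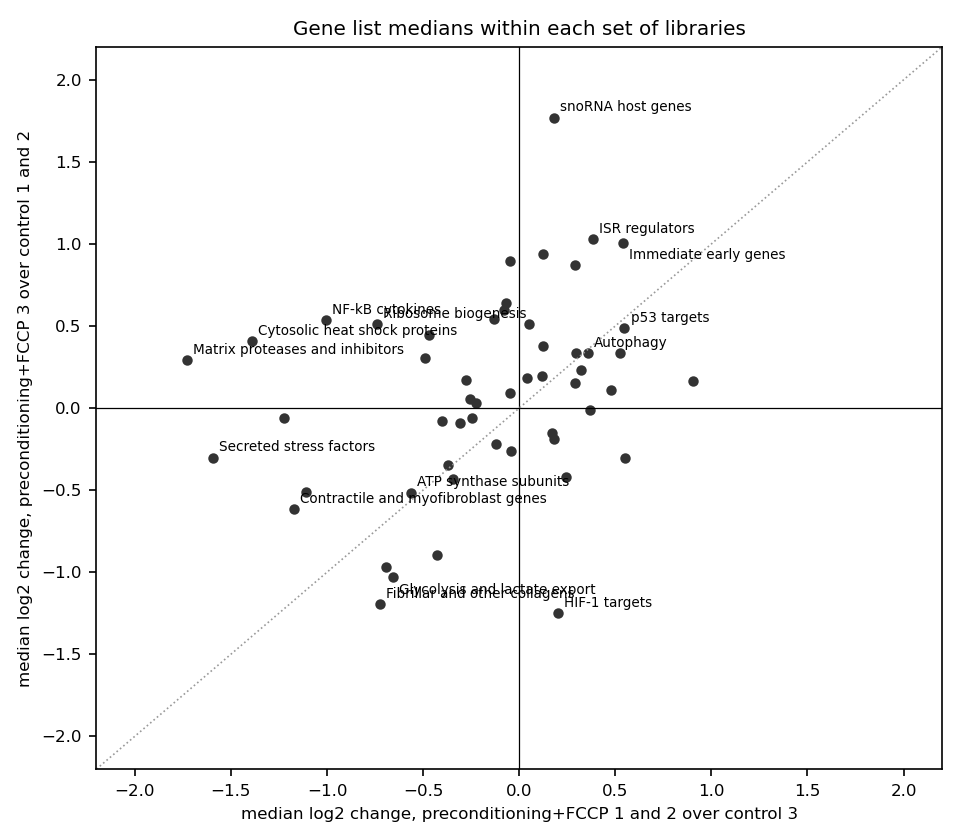
Median log2 change of each gene list for preconditioning+FCCP 1 and 2 over control 3 (horizontal axis) and for preconditioning+FCCP 3 over control 1 and 2 (vertical axis), with equal values on the dotted line. Collagens, glycolysis, contractile genes and ATP synthase are below 0 on both axes, immediate early genes, p53 targets and autophagy above 0 on both, and HIF-1 targets, heat shock proteins, matrix proteases and NF-kB cytokines have opposite signs.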

How the data were processed

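RNA-seq of poly-A-selected RNA gave read counts per gene in 13 libraries, of which 3 are preconditioning+FCCP, 3 FCCP alone, 4 preconditioning alone and 3 control. Raw counts were deposited by the authors as whole numbers for 63241 Ensembl gene IDs, and per the submitters' processing notes reads were aligned to hg19 with HISAT2 and counted with HTSeq. Versions, the annotation release and the strand setting are not given in the sources used here. Reads assigned to no gene did not enter library sizes. In the 6 compared libraries 2.30% to 5.20% of reads had no feature and 4.00% to 11.5% aligned to several places. A reference table gave symbols for 42338 IDs.

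Genes were filtered with filterByExpr by group, scaled by TMM and tested with edgeR 4.0.16 (R 4.3.3) in a quasi-likelihood fit over all 13 libraries with group as the term, 9 residual degrees of freedom, and Benjamini-Hochberg adjustment over 16756 genes. The procedure was tested on simulated data. CPM values are after TMM scaling, and counts limit their precision at low levels. Members of 58 gene lists were taken from general knowledge, and 1090 of 1093 matched a symbol. Members and lists were chosen with earlier results of these data known.

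Genes named were the 10 largest rises and falls among called genes of at least 5 CPM without overlap, the 6 smallest adjusted p in each direction with and without the library set as a term, up to 4 called members per list, and some fixed genes. A few genes that this selection names are not reported here. Further list members that changed are named after their values were seen. DESeq2 1.42.0, limma 3.58.1 and mgcv 1.9.3 served 24 alternatives planned and 2 added after seeing the data, the fits within each library set. Sets were parted at 6.17% of reads aligned to several places.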

Additional observations from a re-analysis of the deposited data

How the results depend on the processing

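Against 5229 genes called, DESeq2 size factors gave 5209, library totals only 5360, no filter 5367, a mean of at least 1 CPM 5005, mitochondrial genes left out 5233, limma-voom 5287, DESeq2's test 5942, a length and GC trend taken out 5238, the library set as a term 5043, both replicate 3 libraries left out 7253, and the lower-share set alone, chosen after seeing the data and with control 3 as its lone control, 5483. The count was 3010 with the 6 compared libraries alone, 252 within the higher-share set alone, also added and with preconditioning+FCCP 3 as the lone library of its group assumed to vary like the other groups, 2489 at an adjusted p under 0.01 and 3084 with an absolute log2 change of at least 1. Leaving out 1 library gave 3098 to 6657. The labels do not say whether replicate numbers pair libraries. Same-numbered libraries correlated at −0.14, −0.09 and −0.20 in their deviations from group means. In both groups the replicate 3 library lay in the other set from the rest of its group, in opposite directions, so these correlations cannot decide it. The replicate block gave 3944 calls.

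Among named genes, directions reversed in 7 values: HMOX1 was 0.71 with both replicate 3 libraries left out and 0.78 without control 3, HSPD1 0.64 and 0.68 in the same 2 settings, and, within the lower-share set, BNIP3L 0.40, MMP2 0.14 and SPRY1 0.25. Without 1 library, HMOX1 ranged between −0.79 and 0.78 and HSPD1 between −0.33 and 0.68. The cause was not tested. Of 246 called named genes, a selection that favours small p-values, 185 to 237 stayed called when 1 library was left out.

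The mitochondrial share difference of −3.82 percentage points was −2.85 over all reads and −2.87 without the ribosomal RNAs, −1.18 and −2.85 within the sets, and −5.91 to −2.62 without 1 library. The promoter motif share of 9.52% was also 9.52% with 300-base windows and 14.3% with the looser motif TGATGNA. Depth limits the genes near 1 CPM, which rest on few counts.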
